A study of Homo sapiens with 9 samples.

Results

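Transcript levels after 24 h of glutamine (Gln) deprivation were compared with those after 12 h in HepG2 cells, a human hepatoma line in long use as a model of hepatocytes. The comparison covers the 11840 genes, of 22587 in the deposited table, whose mean over the 6 Gln-deprived libraries was at least 0.5 FPKM, a level in fragments that is divided by gene length and library depth. The genes were taken by that level alone, whatever their difference between the times. The group Gln deprived 12 h and the group Gln deprived 24 h held 3 libraries each, from cells kept in high-glucose DMEM with serum and changed, a day after plating, to DMEM that lacked Gln. A further 3 libraries with Gln added carry no time label. Their levels are printed beside the others for orientation, and they entered no test. GlutaMAX, a dipeptide that releases Gln, is given in the labels as the treatment of the Gln-added samples, but in their protocol text and in the methods it belongs to the medium used for deprivation. Since no Gln-added culture is labelled as matched to 24 h, time without Gln and time in culture cannot be told apart here. The labels do not say that the libraries of a time came from separate experiments, so the p-values measure only the spread between these libraries, which may be technical. In bulk RNA, fewer cells of a kind and less RNA per cell cannot be told apart. The study followed DNA damage and repair over the first day of Gln deprivation, and the comparison asks which transcripts were still moving between the 2 times at which RNA was taken.

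As background, Gln supplies nitrogen for purines, pyrimidines and other amino acids, and carbon for the tricarboxylic acid (TCA) cycle. When amino acids run short, uncharged tRNA activates the kinase GCN2, and the transcription factor ATF4 then drives genes of amino acid uptake, amino acid synthesis and tRNA charging. Cells that cannot make nucleotides slow their passage through S phase, and genes of mitosis are transcribed late in the cell cycle. Promoters of many mitotic genes carry a cell cycle gene homology region (CHR), read by the DREAM and MuvB complexes, close to CCAAT boxes, which bind NF-Y. Metallothionein promoters carry metal response elements (MREs), read by the zinc sensor MTF1.

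The 12 h libraries held 29621270 to 36261546 fragments on genes and the 24 h libraries 33255623 to 35800949, and the median coefficient of variation between replicates, over the 5110 genes at 10 FPKM or more, was 4.01% at 12 h and 4.36% at 24 h. The times were separated on the first principal component of the 6 libraries, which held 46.7% of the variance. Replicate 3 of 12 h (at -5.95, against -15.3 for both others) and replicate 1 of 24 h (at 4.86, against 15.6 and 16.2) lay nearest to the other time on it. Both libraries also lay at opposite ends of the second component, at -13.0 and 17.1, with the others from -4.71 to 1.68. That component held 22.5% of the variance. Replicate 3 of 12 h and replicate 1 of 24 h are called the pair from here on. The pair was chosen after the data were seen, by its nearness to the other time, so leaving it out favours a wider contrast. Counts without the pair are therefore a description and no independent check. Where leaving out 1 library, or the pair, moved the count of a list by more than 1.5 times or to or from 0, that count is given in the same paragraph. All 10 hepatocyte markers were present, from 17.4 ± 1.28 FPKM of TTR to 3350.0 ± 31.2 FPKM of ALB (albumin) at 12 h. Among 16 markers of leukocytes, endothelium, stroma and basal epithelium, 5 passed the filter (LYZ, CD68, CD14, ACTA2 and PDGFRB). The highest of them was LYZ (lysozyme), with 524, 531 and 564 FPKM at 12 h and 736, 780.2 and 785 FPKM at 24 h, a rise of 0.51 ± 0.046 (SE) on the log2(FPKM + 0.1) scale. 34.7% of its exon bases lie opposite another gene. CD68, a lysosomal protein of macrophages, had a difference of -0.37, a call lost without 12 h replicate 2 or 24 h replicate 3 (adjusted p = 0.0594 to 0.0632). CD68 shares 81.6% of its exon bases with another gene on its strand. CD14, ACTA2 and PDGFRB did not pass the test. The part of these genes in the results was not tested.

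Between 12 h and 24 h, 1772 genes passed the test at an adjusted p under 0.05, with 870 higher at 24 h (7.35%) and 902 lower (7.62%). Genes that passed are called here higher or lower. The counts of the gene lists below are to be read beside these shares. Most differences were small. The median size of a called difference was 0.32 on the log2(FPKM + 0.1) scale, which is used for all differences, 79.7% of the calls were no larger than 0.5, and 34 of them were larger than 1, of which 24 were higher and 10 lower. The median over all tested genes was 0.02. By level, 8.6% of the 1151 genes with a mean of 50 FPKM or more were higher and 15.7% lower. Of the 989 genes with a mean under 1 FPKM, 4.85% were higher and 1.21% lower. Among the 24 large rises, 22 were genes with a mean under 5 FPKM, against 5 of the 10 large falls. Leaving out 12 h replicate 1, 12 h replicate 2 or 24 h replicate 3 lowered the number of calls to 879, 933 and 930, while leaving out the pair raised it to 2545. The count of differences over 1 rose to 77 without 24 h replicate 1 and to 128 without the pair.

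Among 56 gene lists, those of mitosis and the metallothioneins had the lowest median differences between 24 h and 12 h, and promoters of their members are shown for that reason. Each is the stretch of 120 bases that ends at the base before the RefSeq start on GRCh38.p14, written 5′ to 3′ on the strand of the gene, all of them on the plus strand. In the first 6, capitals mark the CHR (TTTGAA or TTCGAA) and the CCAAT box, on either strand. The CDCA8 promoter has a CHR and a CCAAT box that overlap by 1 base, and the CENPA stretch has a CHR alone. The MRE core (TGCACNC or TGCGCNC, on either strand), in capitals in the last 2, was added to the motifs after the values had been seen.
KIF20A, chr5:138178992-138179111: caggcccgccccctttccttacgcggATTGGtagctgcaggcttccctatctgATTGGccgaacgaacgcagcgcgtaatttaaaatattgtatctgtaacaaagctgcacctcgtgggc
PLK1, chr16:23678769-23678888: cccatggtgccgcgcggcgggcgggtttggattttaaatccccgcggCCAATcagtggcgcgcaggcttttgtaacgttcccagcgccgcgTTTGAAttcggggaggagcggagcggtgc
CDC20, chr1:43358861-43358980: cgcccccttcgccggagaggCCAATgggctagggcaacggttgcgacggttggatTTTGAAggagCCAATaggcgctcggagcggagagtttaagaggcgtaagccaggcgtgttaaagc
CCNB1, chr5:69167030-69167149: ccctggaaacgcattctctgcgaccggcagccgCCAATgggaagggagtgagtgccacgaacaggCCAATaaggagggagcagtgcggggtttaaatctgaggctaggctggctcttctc
CDCA8, chr1:37692396-37692515: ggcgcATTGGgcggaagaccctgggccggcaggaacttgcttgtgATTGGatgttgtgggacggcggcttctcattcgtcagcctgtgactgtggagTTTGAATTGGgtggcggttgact
CENPA, chr2:26785936-26786055: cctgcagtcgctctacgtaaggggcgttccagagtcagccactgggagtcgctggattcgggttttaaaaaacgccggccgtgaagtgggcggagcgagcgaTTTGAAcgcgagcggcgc
MT1X, chr16:56682350-56682469: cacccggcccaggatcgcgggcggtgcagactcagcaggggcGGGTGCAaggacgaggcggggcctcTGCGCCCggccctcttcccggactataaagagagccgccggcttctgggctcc
MT2A, chr16:56608464-56608583: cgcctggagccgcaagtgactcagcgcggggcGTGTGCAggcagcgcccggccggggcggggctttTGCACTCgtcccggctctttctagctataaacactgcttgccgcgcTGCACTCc

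A CHR lay in the window from 250 bases before to 50 bases after the start in 48 of the 68 members of the 3 mitotic lists that have an entry in the promoter table (70.6%). The same share was 16.6% over all 27305 genes of that table and 11.2% over the 9511 tested genes found in it. It was 24.0% of the 728 genes that were lower at 24 h, 19.6% of the 669 of these outside the mitotic lists, and 9.71% of the 690 that were higher. A CCAAT box was present in 70.6% of the mitotic list members and 37.1% of the tested genes. KIF20A and CCNB1 have 2 CCAAT boxes each in the printed stretch and no match to the CHR letters. The E2F letters GCGGGAA gave a different order, with 44.4% of 27 replication fork genes, 31.8% of 22 licensing genes, 10.3% of the mitotic list members and 10.5% of the tested genes. MRE letters were in all 3 metallothionein promoters of the table and in 38.8% of the tested genes. Such matches are a description of the letters and show no binding.

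Genes of mitosis fell together. The 3 lists of mitotic genes held 80 tested members, of which 68 were lower at 24 h and none was higher. In the list of entry kinases and cyclins, 15 of 18 were lower (median difference -0.56). Of the 46 genes of the spindle, the kinetochore and chromosome structure, 39 were lower (median -0.49), and of the 16 of mitotic exit and cytokinesis, 14 (median -0.59). When each library was left out in turn, these counts ranged from 14 to 15, from 36 to 41 and from 13 to 14, and without the pair they were 15, 37 and 13. In the plot of list medians the 3 libraries of 12 h lay between 0.22 and 0.35 relative to the mean of the 6 libraries in all 3 lists, and those of 24 h between -0.32 and -0.25, with no overlap. No member of these lists, nor of the lists of licensing, the fork, nucleotide synthesis or homologous recombination, was higher in limma, in voom or at an unadjusted p under 0.05 (0 in each).

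Among the regulators of mitotic entry, PLK1 (chr16:23677656-23690367 on GRCh38), the Polo-like kinase that starts centrosome maturation, had 130.2, 131 and 122 FPKM at 12 h and 68.7, 72.6 and 66.4 FPKM at 24 h, beside 118 ± 4.07 FPKM with Gln added. PLK1 was thus near its Gln-added level at 12 h and below it in all 3 libraries of 24 h, a fall of 0.88 ± 0.049 (SE) with an adjusted p of 7.58e-05 in limma. AURKA, the centrosomal Aurora kinase, had 67.5, 69.1 and 67.8 FPKM at 12 h and 39.3, 37.1 and 37.6 FPKM at 24 h beside 67.7 ± 1.05 FPKM with Gln added, and fell by 0.84 ± 0.04. AURKB, the Aurora kinase of the chromosomal passenger complex, fell by 0.79 ± 0.05. The libraries of the 2 times did not overlap for any of these kinases. Such separation was common to the calls, as 1710 of the 1772 called genes had no overlap and a mean of at least 1 FPKM. Some genes that did not pass, such as ACTA2, BRCA1 and DDX5, were separated in the same way. The share over all tested genes is not reported here, so separation of the times is a description and adds no support to a call. CCNB1, the cyclin that activates CDK1 at mitosis, went from 86.7 ± 0.751 FPKM to 52.2 ± 3.53 FPKM (a fall of 0.73 ± 0.053), CCNA2, cyclin A2, fell by 0.67 ± 0.068, and BUB1, a kinase of the spindle checkpoint, by 0.66 ± 0.041.

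On the spindle and the kinetochore, the largest fall was that of KIF20A, the kinesin of the central spindle, with 20.6 ± 0.550 FPKM at 12 h and 10.9 ± 0.195 FPKM at 24 h (SD, n = 3), beside 34.9 ± 1.48 FPKM with Gln added, a fall of 0.92 ± 0.045. CENPE, the kinetochore motor, fell by 0.80 ± 0.074, CDCA8 (borealin, a subunit of the passenger complex) by 0.77 ± 0.049, and CENPA, the histone H3 variant of centromeres, by 0.75 ± 0.058. NUF2, a subunit of the microtubule-binding NDC80 complex, and KIF4A, the chromokinesin, fell by 0.74 ± 0.067 and 0.72 ± 0.059. Among genes of mitotic exit, CDC20, the activator of the anaphase-promoting complex, had 82.2, 84.9 and 74.7 FPKM at 12 h and 51.2, 44.6 and 44.7 FPKM at 24 h beside 109 ± 1.55 FPKM with Gln added, and fell by 0.78 ± 0.069. UBE2C, the ubiquitin-conjugating enzyme of that complex, went from 78.3 ± 2.45 FPKM to 44.9 ± 1.19 FPKM. The remaining named genes of exit (PIMREG, HJURP, CCNF and CDKN3) fell by 0.68 to 0.83. The spread between replicates was small beside these falls, as the plot of cell division genes shows.

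**Figure D1:**
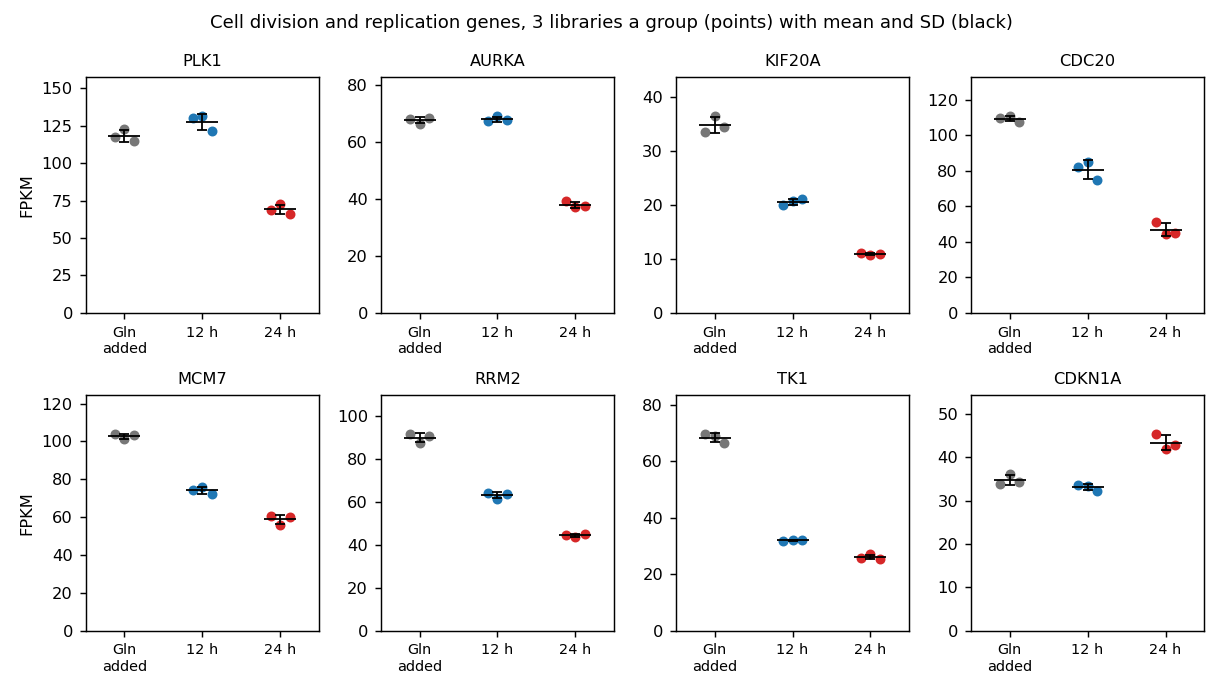
Levels in FPKM (y axes, each from 0) of 8 genes of mitosis, replication and cell cycle arrest in the 3 groups (x axis), with each library a point and the mean and SD in black. PLK1 and AURKA were at 12 h near their Gln-added level and lower at 24 h, whereas KIF20A, MCM7, RRM2 and TK1 were already well below it at 12 h, and CDKN1A was highest at 24 h.

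Genes of DNA replication moved in the same direction by less. In the list of origin licensing and firing, 9 of 26 were lower, none higher (median -0.18), and in that of the fork and the DNA polymerases 6 of 31, none higher (median -0.14). The background was 7.62% lower. Licensing calls were 4 without 12 h replicate 2 and 5 without 12 h replicate 1, and fork calls 3 without 12 h replicate 2. Relative to the mean of the 6 deprived libraries, the Gln-added libraries lay 0.79 to 0.81 higher in the licensing list and 0.80 to 0.88 in the fork list. In the mitotic lists they lay 0.38 to 0.39 higher for entry, 0.42 to 0.48 for the spindle and kinetochore, and 0.45 to 0.49 for exit. Among licensing genes, TICRR, which helps load CDC45, fell by 0.49 ± 0.083, CDT1, the loader of the MCM helicase, by 0.42 ± 0.055, and MCM7, a subunit of that helicase, by 0.33 ± 0.045. MCM7 had 74.1, 76.1 and 72.4 FPKM at 12 h and 60.4, 56.0 and 60.3 FPKM at 24 h, beside 103 ± 1.45 FPKM with Gln added. CDC45 did not pass (-0.28, adjusted p = 0.0683). At the fork, ASF1B (a histone chaperone), LIG1 (the ligase of Okazaki fragments) and RNASEH2A (a subunit of RNase H2) fell by 0.47 ± 0.068, 0.37 ± 0.058 and 0.32 ± 0.045. RNASEH2A shares 53.3% of its exon bases with another gene on the same strand, and its fragments are therefore uncertain.

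Enzymes of nucleotide synthesis, a pathway that uses Gln as a nitrogen donor, had 7 of 26 lower and none higher (median -0.13). RRM2, the small subunit of ribonucleotide reductase, had 64.1, 61.4 and 63.4 FPKM at 12 h and 44.8, 43.7 and 44.9 FPKM at 24 h, beside 89.9 ± 2.04 FPKM with Gln added, with no overlap between the times and a fall of 0.50 ± 0.039 (adjusted p = 0.000228). RRM1, its large subunit, fell by 0.33 ± 0.059, DTYMK (thymidylate kinase) by 0.35 ± 0.045 and TK1 (thymidine kinase) by 0.30 ± 0.041. DHODH, the enzyme of pyrimidine synthesis in mitochondria, did not pass (-0.28, adjusted p = 0.123).

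Inhibitors of cyclin-dependent kinases moved in both directions. CDKN2B (p15), an inhibitor of the cyclin D kinases, had 1.01, 0.692 and 0.697 FPKM at 12 h and 2.10, 1.86 and 1.89 FPKM at 24 h, beside 0.184 ± 0.0447 FPKM with Gln added, and rose by 1.21 ± 0.15 (SE, adjusted p = 0.00169). CDKN1A (p21), the inhibitor that p53 controls, had 33.6, 33.3 and 32.2 FPKM at 12 h and 45.3, 42.0 and 42.9 FPKM at 24 h beside 34.8 ± 1.16 FPKM with Gln added. CDKN1A at 12 h was thus close to its Gln-added level, and at 24 h every library was above it, a rise of 0.39 ± 0.045. CDKN2D (p19) fell by 0.59 ± 0.097, and CDKN2C (p18) had a difference of -0.71, a call lost without 12 h replicate 3 (adjusted p = 0.051). E2F8, a repressor among the E2F factors, fell by 0.69 ± 0.071. Over the whole list of G1 cyclins, E2F factors and CDK inhibitors, 3 of 25 were higher and 7 lower.

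Targets of p53 had 4 of 26 higher and 1 lower (median 0.07). Beside CDKN1A these were the Polo-like kinases PLK3 (0.44 ± 0.053) and PLK2 (0.40 ± 0.075), which act in stress responses, and TP53INP1, an activator of p53 and of autophagy (0.38 ± 0.07). The lower gene, FDXR (ferredoxin reductase), had a difference of -0.23, a call lost in 5 of 6 leave-outs, all except that of 24 h replicate 1 (adjusted p = 0.0822 to 0.144). Higher p53 targets were 8 without the pair, and lower ones 0 without any 1 library other than 24 h replicate 1 and 2 without the pair. Of the 22 regulators of apoptosis, 1 was called, as higher (4.55%, against 7.35% of all tested genes). Higher calls were 2 without 24 h replicate 1 and 3 without the pair. The called gene was MCL1, an anti-apoptotic BCL2 protein. It had 97.0, 97.3 and 103 FPKM at 12 h and 112, 123 and 125 FPKM at 24 h, a rise of 0.28 ± 0.051.

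DNA repair genes were followed in 4 lists. In homologous recombination (HR), 6 of 30 were lower and none higher (median -0.14), with lower counts of 2 without 12 h replicate 2 and 3 without 12 h replicate 1 or 12 h replicate 3. EXO1, the nuclease that resects DNA ends, fell by 0.48 ± 0.088, FANCI, of the Fanconi anemia pathway, by 0.30 ± 0.055, and RAD54L, a motor protein of strand exchange, had a difference of -0.43, a call lost without 12 h replicate 2 (adjusted p = 0.0572). RAD51AP1, which promotes strand invasion, had 10.5, 11.03 and 11.8 FPKM at 12 h and 7.52, 9.22 and 9.28 FPKM at 24 h. The groups did not overlap and the difference was -0.36, but the call was lost without any 1 of the 12 h libraries (adjusted p = 0.0541 to 0.0849), and the difference shrank to -0.22 without the pair. BRCA1, which acts in end resection, had 5.96, 6.24 and 6.43 FPKM at 12 h and 5.31, 5.67 and 4.97 FPKM at 24 h and did not pass (-0.22, adjusted p = 0.0597). PARP1, the sensor of strand breaks, had 33.5, 33.0 and 33.1 FPKM at 12 h and 35.5, 33.4 and 34.8 FPKM at 24 h, and its 95% interval of -0.038 to 0.15 around a difference of 0.056 holds 0.

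Mismatch repair had no call among 7 tested members in limma or in voom on the recovered fragments, and 1 at an unadjusted p under 0.05 (PMS1). Higher calls in it were 1 without 24 h replicate 1 and 1 without the pair. Base excision repair had 1 higher and 2 lower of 20 (5.0% and 10.0%), and nucleotide excision repair 1 higher and 2 lower of 21 (4.76% and 9.52%). These shares lay near the 7.35% higher and 7.62% lower of all tested genes. Base excision repair had higher calls of 0 without any 1 library and 0 without the pair, and lower calls of 3 without 24 h replicate 1, 0 without 12 h replicate 2 or 24 h replicate 2 and 1 without 12 h replicate 1, 12 h replicate 3 or 24 h replicate 3. In nucleotide excision repair higher calls were 1 in every leave-out, and lower calls were 0 without 12 h replicate 1 or 24 h replicate 1, 1 without 12 h replicate 2, 12 h replicate 3, 24 h replicate 2 or 24 h replicate 3 and 1 without the pair. Of the mismatch repair genes, PMS1 and MLH3 had differences of 0.27 and 0.16, with adjusted p of 0.128 and 0.192. Called genes of excision repair included NEIL3, a glycosylase of dividing cells, with a difference of -0.77 and the call lost without 12 h replicate 2, 12 h replicate 3 or 24 h replicate 2 (adjusted p = 0.0536 to 0.0653), and ERCC1, a subunit of the nuclease that cuts beside lesions, which rose by 0.45 ± 0.058 and shares 28.6% of its exon bases with a gene on the opposite strand. H2AX, the histone whose phosphorylated form marks strand breaks, had 44.4, 47.0 and 38.5 FPKM at 12 h and 31.6, 29.6 and 27.2 FPKM at 24 h, beside 73.4 ± 2.04 FPKM with Gln added, a fall of 0.55 ± 0.081. It is a member of the list of variant histones and not of a repair list. Its RNA level is no measure of the phosphorylated protein or of DNA damage.

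The largest fall of any gene was that of CYP1A1 (chr15:74719542-74725536 on GRCh38), the cytochrome P450 that the aryl hydrocarbon receptor (AHR) induces. It had 62.4, 63.0 and 58.3 FPKM at 12 h and 11.4, 11.5 and 11.1 FPKM at 24 h, beside 6.23 ± 0.297 FPKM with Gln added. The 12 h libraries were thus far above both other groups, and at 24 h the level was 5.41-fold lower than at 12 h (-2.42 ± 0.046 on the log2 scale, adjusted p = 7.38e-08). CYP1A2, its neighbor and paralog, went from 2.47 ± 0.183 FPKM to 0.881 ± 0.249 FPKM, beside 1.08 ± 0.0569 FPKM with Gln added. ALDH3A1, an aldehyde dehydrogenase of the same AHR battery, fell by 0.88 ± 0.091. It had 7.39 ± 0.742 FPKM at 12 h and 3.96 ± 0.364 FPKM at 24 h, beside 7.77 ± 0.652 FPKM with Gln added. Unlike CYP1A1 and CYP1A2, ALDH3A1 was thus near its Gln-added level at 12 h and below it at 24 h. The other 6 tested members of the AHR axis did not pass, with higher calls of 1 without the pair. Among these, the receptor AHR itself had 12.6, 12.6 and 13.4 FPKM at 12 h and 14.1, 15.2 and 14.3 FPKM at 24 h (0.18, adjusted p = 0.0563), and the feedback repressor TIPARP and the quinone reductase NQO1 had differences of 0.16 and -0.11.

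Metallothioneins, small cysteine-rich proteins that bind zinc and copper, fell as a family, with 7 of 8 lower (median -0.98), also in every leave-out and without the pair. MT2A, the most abundant, had 881, 797 and 928 FPKM at 12 h and 595, 414 and 484 FPKM at 24 h, beside 629 ± 16.00 FPKM with Gln added. MT1M had 50.9, 47.3 and 37.4 FPKM at 12 h and 14.1, 11.3 and 16.1 FPKM at 24 h, beside 22.5 ± 4.19 FPKM with Gln added, and fell by 1.70 ± 0.14. For both genes the 12 h libraries were the highest of the 9 and the 24 h libraries the lowest. MT1X and MT1E fell by 1.10 ± 0.088 and 1.10 ± 0.083, MT1F and MT1G by 0.86 ± 0.093 and 0.81 ± 0.10, and MT1H, at 0.79 to 2.64 FPKM, by 1.23 ± 0.14. No member was higher in limma, in voom or at an unadjusted p under 0.05 (0 in each). MT1A did not pass (-0.45, adjusted p = 0.327). These genes lie side by side on chromosome 16 and are near-identical copies, so fragments could have been split between them in the counting.

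Targets of NRF2, the regulator of antioxidant genes, had 14 of 25 lower and none higher in limma (1 higher in voom and 1 at an unadjusted p under 0.05), with a median of -0.23. The lower count was 8 without 12 h replicate 1, and 10 to 16 in the other leave-outs, and higher calls were 1 without 24 h replicate 1 and 1 without the pair. HMOX1, heme oxygenase, had 53.6, 50.9 and 47.9 FPKM at 12 h and 35.6, 35.7 and 32.2 FPKM at 24 h, beside 61.0 ± 1.42 FPKM with Gln added, and fell by 0.56 ± 0.059. TXNRD1 (thioredoxin reductase) went from 229.9 ± 2.72 FPKM to 169 ± 4.35 FPKM, beside 146 ± 4.22 FPKM with Gln added, GSR (glutathione reductase) fell by 0.40 ± 0.04, OSGIN1, a growth inhibitor of the oxidative stress response, by 0.55 ± 0.06, and AKR1C2, an aldo-keto reductase with close paralogs, by 0.47 ± 0.047. Drug metabolism genes had 7 of 18 lower and 1 higher (median -0.23). The lower drug metabolism genes were 2 without 12 h replicate 1 or 12 h replicate 2 and 4 without 12 h replicate 3 or 24 h replicate 3, and the higher ones 2 without the pair. The glutathione transferases GSTA1 and GSTA2, which are near-identical, fell by 0.76 ± 0.065 and 0.64 ± 0.077, and PPARGC1A (PGC-1 alpha, the coactivator of fasting genes) was the member that rose (0.49 ± 0.087).

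**Figure D2:**
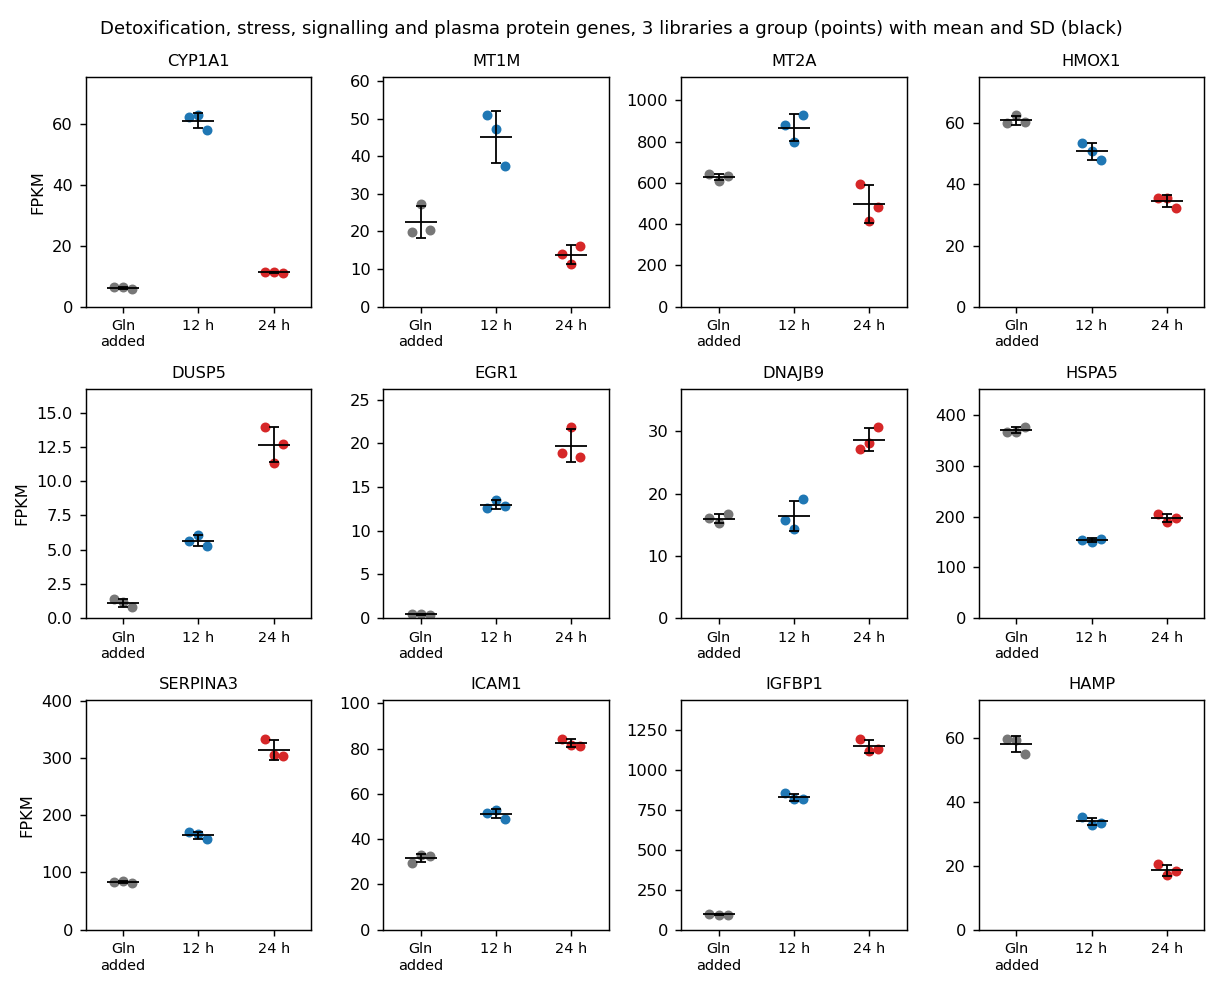
Levels in FPKM (y axes, each from 0) of 12 genes of detoxification, stress, signalling and plasma proteins in the 3 groups (x axis), with each library a point and the mean and SD in black. CYP1A1, MT1M and MT2A were highest at 12 h, DUSP5, EGR1, SERPINA3, ICAM1 and IGFBP1 highest at 24 h, and HSPA5 was lowest at 12 h.

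Genes of the amino acid response had medians near 0. ATF4 targets had 2 of 27 higher and 3 lower (median -0.04), aminoacyl-tRNA synthetases 1 of 20 higher (median -0.02) and amino acid transporters 1 of 18 lower, with a median that rounds to 0. These shares are at or under the background of 7.35% and 7.62%, apart from the 11.1% of ATF4 targets that were lower. The lower ATF4 targets were 4 without 24 h replicate 1, 1 without any 12 h library or 24 h replicate 3 and 7 without the pair, and the higher ones 0 without 12 h replicate 2, 12 h replicate 3 or 24 h replicate 3, 1 without 12 h replicate 1 or 24 h replicate 1 and 1 without the pair. For the synthetases, higher calls were 0 without 12 h replicate 2 or 24 h replicate 3 and 2 without the pair, and lower calls 1 without 24 h replicate 1 and 2 without the pair. For the transporters, higher calls were 1 without 24 h replicate 1 and 3 without the pair, and lower calls 2 without 12 h replicate 3 or 24 h replicate 2 and 3 without the pair. Relative to the mean of the deprived libraries, the Gln-added libraries lay at -1.53 to -1.45 in the ATF4 list and at -0.61 to -0.56 in the synthetase list. A list of 12 genes had 2 lower (RAD51AP1, above, and MYC), with lower counts of 0 without 12 h replicate 1 or 12 h replicate 2, 1 without 12 h replicate 3 or 24 h replicate 3 and 4 without the pair. Its members were chosen on these samples, as genes that were measured or silenced in the same work, and are no independent evidence. TRIB3, the pseudokinase at the center of the study, had 272, 266 and 246 FPKM at 12 h and 262, 242 and 248 FPKM at 24 h, beside 64.3 ± 1.48 FPKM with Gln added, and its difference of -0.061 had a 95% interval of -0.18 to 0.056. The ATF4 targets SESN2 (0.059), DDIT3 (-0.14) and ASNS (-0.32), the factors CEBPB (0.04) and JUN (-0.044), and the helicase DDX5 (0.074) did not pass either. ASNS, the enzyme that makes asparagine from Gln, had 1.95, 1.86 and 1.61 FPKM at 12 h and 1.24, 1.51 and 1.54 FPKM at 24 h and shares 49.3% of its exon bases with another gene on its strand. In the remaining ATF4 list, NUPR1, a stress-induced chromatin factor, fell by 0.47 ± 0.062, and of the transporters SLC7A5, the light chain of the leucine exchanger, fell by 0.31 ± 0.051.

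Enzymes of Gln, glutamate and the urea cycle had 2 of 23 higher and 3 lower. Their higher calls were 1 without 12 h replicate 1 or 24 h replicate 3 and 4 without the pair, and their lower calls 1 without 12 h replicate 1 or 24 h replicate 3. NAGS, which makes the activator of the urea cycle, rose by 0.41 ± 0.06 in contrast to CPS1, the first enzyme of that cycle, which had a difference of -0.31, a call lost without 24 h replicate 3 (adjusted p = 0.0622). In one-carbon metabolism, with 3 of 21 higher and 3 lower, BHMT, which remethylates homocysteine from betaine, had 9.19, 10.4 and 9.91 FPKM at 12 h and 5.54, 6.04 and 5.94 FPKM at 24 h and fell by 0.74 ± 0.064. GLDC, of the glycine cleavage system, went from 34.1 ± 0.677 FPKM to 23.0 ± 1.27 FPKM, beside 59.1 ± 0.953 FPKM with Gln added. Both were lowest at 24 h among the 3 groups. One-carbon genes had higher counts of 0 without 12 h replicate 2, 12 h replicate 3 or 24 h replicate 3 and 1 without 12 h replicate 1 or 24 h replicate 1, and lower counts of 5 without the pair.

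Chaperones of the endoplasmic reticulum (ER) split, with 8 of 24 higher and 5 lower (median 0.07). The lower count was 2 without 12 h replicate 1, 12 h replicate 2 or 24 h replicate 2 and 3 without 12 h replicate 3 or 24 h replicate 3. DNAJB9 (ERdj4), an ER co-chaperone, had 15.8, 14.4 and 19.1 FPKM at 12 h and 27.2, 28.2 and 30.7 FPKM at 24 h, beside 15.99 ± 0.720 FPKM with Gln added, and rose by 0.81 ± 0.098. HSPA5 (BiP), the main Hsp70 of the ER, had 155, 150.5 and 157 FPKM at 12 h and 205, 190.5 and 199 FPKM at 24 h, beside 371 ± 5.41 FPKM with Gln added. It rose between the times by 0.36 ± 0.042 while staying under its Gln-added level. HERPUD1, of ER-associated degradation, MANF, an ER-resident survival factor, and DNAJC3, which restrains the kinase PERK, rose by 0.36 ± 0.052, 0.36 ± 0.064 and 0.35 ± 0.049. CALR, the lectin chaperone calreticulin, went the other way, with 535, 529.6 and 509 FPKM at 12 h and 408, 389 and 388 FPKM at 24 h, beside 828 ± 1.86 FPKM with Gln added.

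Among the cytosolic and mitochondrial heat shock proteins, 7 of 21 were higher and 3 lower (median 0.05). HSPA1A and HSPA1B, the stress-inducible Hsp70 genes, had 13.9, 16.2 and 14.4 FPKM at 12 h and 24.8, 22.8 and 24.0 FPKM at 24 h for the former and 15.6, 18.3 and 16.9 FPKM at 12 h and 25.2, 25.4 and 27.6 FPKM at 24 h for the latter. They rose by 0.68 ± 0.065 and 0.62 ± 0.067 from a 12 h level under the 37.6 ± 0.877 FPKM and 47.0 ± 1.37 FPKM of the Gln-added libraries. The 2 genes are near-identical, and their separate values are uncertain. HSPA8, the constitutive Hsp70, and DNAJA1, its co-chaperone, rose by 0.35 ± 0.042 and 0.25 ± 0.039, and HSPB1, the small heat shock protein, fell by 0.34 ± 0.062. The count of higher genes was 4 without 12 h replicate 1, 12 h replicate 2 or 24 h replicate 2 and 5 in the other leave-outs. HSE letters (GAANNTTC) were in 30.0% of the 20 promoters of this list, against 4.55% of the tested genes.

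**Figure D3:**
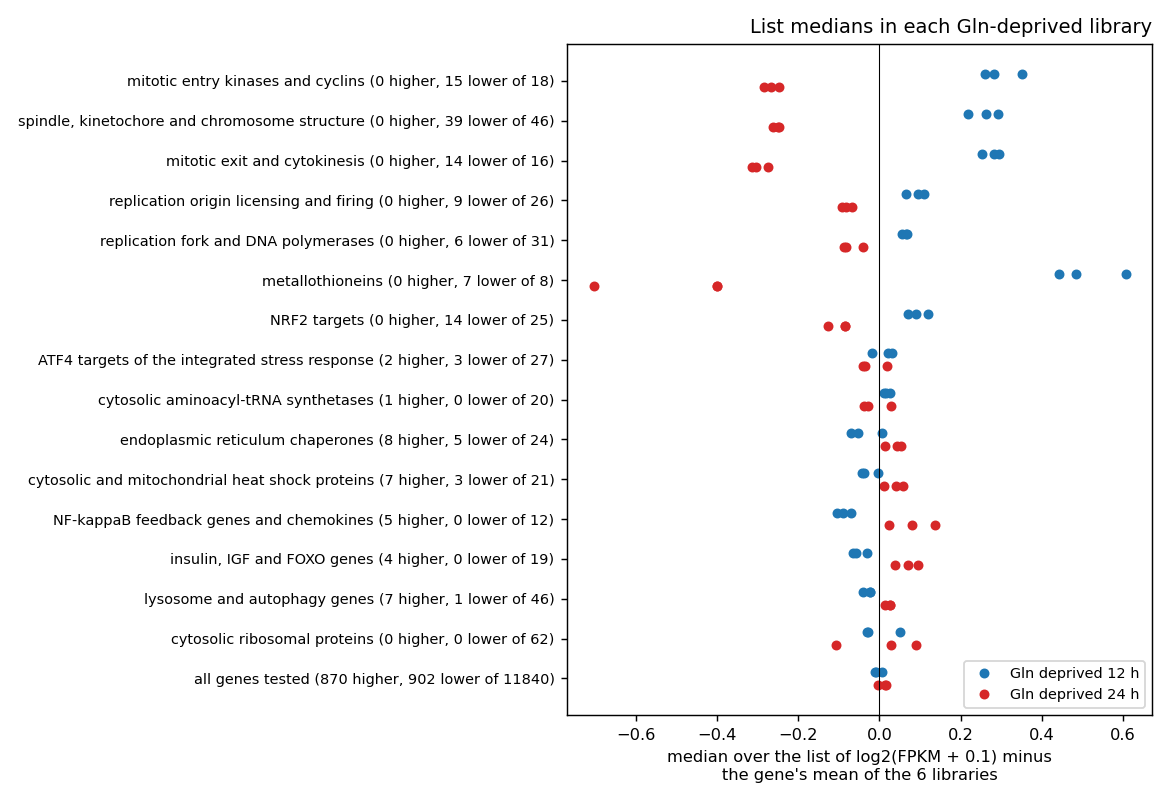
Medians of 16 gene groups (rows, with their calls) in each of the 6 Gln-deprived libraries, as log2(FPKM + 0.1) minus the mean of each gene over the 6 libraries (x axis), in blue for 12 h and red for 24 h. The mitotic lists and the metallothioneins separate the times most, while ribosomal proteins spread between replicates without separating them.

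Feedback genes of MAP kinase signalling gave 3 higher and 1 lower of 15 (lower calls 0 without 12 h replicate 1, 12 h replicate 2 or 24 h replicate 3). DUSP5 (chr10:110497907-110511533 on GRCh38), the phosphatase that inactivates nuclear ERK, had 5.64, 6.07 and 5.28 FPKM at 12 h and 13.96, 11.3 and 12.7 FPKM at 24 h, beside 1.12 ± 0.274 FPKM with Gln added, a rise of 1.15 ± 0.084. DUSP6, its cytosolic counterpart, had 67.6, 70.8 and 74.0 FPKM at 12 h and 96.3, 103 and 101 FPKM at 24 h, beside 17.01 ± 0.122 FPKM with Gln added, and rose by 0.50 ± 0.047. EGR1, an immediate early transcription factor downstream of ERK, had 12.6, 13.6 and 12.8 FPKM at 12 h and 18.9, 21.9 and 18.4 FPKM at 24 h, beside 0.435 ± 0.0311 FPKM with Gln added. In all 3 the levels followed the order of Gln added, 12 h and 24 h, with no overlap between the groups. IER2, another immediate early gene, rose by 0.41 ± 0.043, though 52.2% of its exon bases lie opposite another gene. MYC, the growth factor-responsive transcription factor, had 64.9, 68.2 and 60.8 FPKM at 12 h and 52.4, 58.7 and 51.1 FPKM at 24 h and a difference of -0.26, a call lost without 12 h replicate 1, 12 h replicate 2, 24 h replicate 1 or 24 h replicate 3 (adjusted p = 0.0613 to 0.112). Of the 17 AP-1 and immediate early genes, 2 were higher and 1 lower, with lower calls of 0 without 12 h replicate 1, 12 h replicate 2, 24 h replicate 1 or 24 h replicate 3. Of the 13 KLF and SP factors 2 were higher, KLF10 by 0.33 ± 0.063. KLF and SP factors had higher counts of 1 without 12 h replicate 1, 12 h replicate 2 or 24 h replicate 3, 4 without 24 h replicate 1 and 5 without the pair, and lower counts of 1 without 12 h replicate 3 and 1 without the pair.

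NF-kappaB feedback genes and chemokines had 5 of 12 higher and none lower (median 0.16), with 0 lower also in voom and at an unadjusted p under 0.05. The higher count was 2 without 12 h replicate 1 and 3 without 12 h replicate 2, 24 h replicate 1 or 24 h replicate 3. ICAM1, the leukocyte adhesion molecule, had 51.6, 52.9 and 48.9 FPKM at 12 h and 84.4, 81.8 and 81.0 FPKM at 24 h, beside 31.6 ± 1.88 FPKM with Gln added, and rose by 0.69 ± 0.044. SOD2, the mitochondrial superoxide dismutase, rose by 0.53 ± 0.053. The 2 genes kept their calls in every leave-out, and of the others CXCL8 (0.14), TNFAIP3 (0.091), RELB (0.17) and NFKB1 (-0.065) did not pass.

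Targets of bone morphogenetic proteins (BMPs) that passed the test were lower. HAMP (hepcidin), the iron hormone that BMP signalling induces in hepatocytes, had 35.3, 32.9 and 33.6 FPKM at 12 h and 20.5, 17.1 and 18.4 FPKM at 24 h, beside 58.1 ± 2.63 FPKM with Gln added, a fall of 0.86 ± 0.067. ID1 and ID2, inhibitors of helix-loop-helix factors, fell by 0.33 ± 0.041 and 0.30 ± 0.054. TGFB1, the ligand transforming growth factor beta, rose by 0.53 ± 0.07. In the whole list of 12 there were 1 higher and 4 lower. Targets of YAP and SRF with actin genes had 8 of 21 higher and 5 lower. CCN1 and CCN2, secreted targets of YAP, rose by 0.61 ± 0.063 and 0.49 ± 0.052, and TAGLN and MYL9, a calponin-like actin binder and a myosin light chain, fell by 0.62 ± 0.077 and 0.49 ± 0.064.

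In the list of insulin, IGF and FOXO genes, 4 of 19 were higher and none lower, in every leave-out. voom called 7 higher, and 10 were higher at an unadjusted p under 0.05, with 0 lower in both. IGFBP1, the insulin-like growth factor binding protein that liver secretes in fasting, had 853, 818 and 816 FPKM at 12 h and 1196, 1117 and 1128 FPKM at 24 h, beside 95.6 ± 2.19 FPKM with Gln added. DEPP1, a FOXO target of fasting and progesterone, had 39.3, 40.6 and 39.1 FPKM at 12 h and 70.2, 67.8 and 61.9 FPKM at 24 h, beside 8.41 ± 0.612 FPKM with Gln added. Both were in the order of Gln added, 12 h and 24 h, and rose between the times by 0.47 ± 0.044 and 0.74 ± 0.053. G6PC1, the glucose-6-phosphatase that releases glucose from liver, rose by 0.59 ± 0.075. Hypoxia genes had 4 of 22 higher and 3 lower. EPO (erythropoietin) had 1.81, 1.86 and 1.503 FPKM at 12 h and 0.740, 1.05 and 0.845 FPKM at 24 h, beside 5.26 ± 0.483 FPKM with Gln added, the glucose transporter SLC2A3 fell by 0.61 ± 0.042 and hexokinase HK2 by 0.37 ± 0.044, while BNIP3L, a receptor of mitophagy, rose by 0.65 ± 0.077. Higher hypoxia genes were 1 without 12 h replicate 1 and 2 without 12 h replicate 2, 24 h replicate 2 or 24 h replicate 3. DKK1, a secreted Wnt antagonist, had 186, 189 and 196 FPKM at 12 h and 122, 143 and 144 FPKM at 24 h, beside 711 ± 21.6 FPKM with Gln added, and fell by 0.48 ± 0.064. Of the 14 Wnt feedback genes 2 were lower, a count of 1 without 12 h replicate 1, 12 h replicate 2 or 24 h replicate 3, 4 without 12 h replicate 3 and 4 without the pair, and higher calls were 1 without 24 h replicate 1.

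Plasma proteins had calls in both directions. SERPINA3 (chr14:94612384-94624055 on GRCh38), the acute phase protease inhibitor alpha-1-antichymotrypsin, had 170.0, 167 and 158 FPKM at 12 h and 334, 305 and 303 FPKM at 24 h, beside 83.5 ± 1.56 FPKM with Gln added, a rise of 0.93 ± 0.051 and the largest among genes over 100 FPKM. It shares 31.7% of its exon bases with another gene on its strand. CP (ceruloplasmin, the copper carrier) rose by 0.53 ± 0.069 and ITIH3, an inter-alpha-trypsin inhibitor heavy chain, by 0.49 ± 0.045, and SERPINA6, the cortisol carrier, fell by 0.31 ± 0.049. The list of carriers and acute phase proteins had 5 of 23 higher and 3 lower (5 without the pair). Coagulation, fibrinolysis and complement had 7 of 32 higher and 3 lower. CFB, complement factor B, rose by 0.44 ± 0.044 with 42.8% of its exon bases shared with a gene on its strand, C5 by 0.27 ± 0.044, and CPB2, the carboxypeptidase that slows fibrinolysis, fell by 0.41 ± 0.049. Coagulation and complement genes had higher counts of 2 without 12 h replicate 1 and 3 without 24 h replicate 3, and lower counts of 1 without 12 h replicate 1, 12 h replicate 2, 24 h replicate 2 or 24 h replicate 3.

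The 10 hepatocyte markers had differences between -0.20 and 0.11. ALB had a difference of -0.0042 with a 95% interval of -0.11 to 0.10, and SERPINA1 one of 0.015 with -0.084 to 0.11. AFP (alpha-fetoprotein) fell by 0.20 ± 0.035, and KRT8 (keratin 8) had a difference of -0.18, a call lost without 12 h replicate 1, 12 h replicate 2, 24 h replicate 2 or 24 h replicate 3 (adjusted p = 0.0824 to 0.175). The other 6 (KRT18, FGB, TF, TTR, APOB and APOA1) did not pass, and the count of lower markers was 1 without 12 h replicate 1, 12 h replicate 2, 24 h replicate 2 or 24 h replicate 3. Of the 21 liver transcription factors, 1 was higher (0 in voom) and 3 lower, and CEBPA, a factor of hepatocyte differentiation, fell by 0.32 ± 0.052 with 43.9% of its exon bases opposite another gene. The higher factor count was 0 without any 1 library and 0 without the pair, and the lower count 1 without 12 h replicate 1, 12 h replicate 2 or 24 h replicate 3. Apolipoproteins had 2 of 17 higher and 3 lower, with APOM, the carrier of sphingosine phosphate, up by 0.34 ± 0.052 and MTTP, which loads lipid on apolipoprotein B, down (-0.29). Higher apolipoprotein genes were 1 without 12 h replicate 1 or 12 h replicate 2, and lower ones 1 without 12 h replicate 1, 12 h replicate 2, 24 h replicate 2 or 24 h replicate 3 and 5 without the pair.

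Lipid genes had calls in both directions. Of the 26 genes of cholesterol synthesis and its regulators, 1 was higher and 5 were lower. In this list higher calls were 3 without 12 h replicate 3 and 5 without the pair, and lower calls 2 without 12 h replicate 1 and 3 without 24 h replicate 3. EBP, a sterol isomerase, fell by 0.35 ± 0.058. The median of that list was 0.02, and its Gln-added libraries lay 1.64 to 1.67 above the mean of the deprived libraries. In fatty acid and triglyceride synthesis, 4 of 24 were higher and 4 lower (2 without 12 h replicate 1). ACSL5, an acyl-CoA synthetase, had 70.9, 69.5 and 72.0 FPKM at 12 h and 105, 102 and 102 FPKM at 24 h, and the phosphatidate phosphatases LPIN2 and LPIN1 rose with it, by 0.40 ± 0.044 and 0.39 ± 0.062. FADS2, the delta-6 desaturase, fell by 0.51 ± 0.049, and DGAT2, which makes triglyceride, by 0.30 ± 0.051. Fatty acid oxidation had 5 of 21 lower and 1 higher. Its lower count was 3 without 12 h replicate 1, 12 h replicate 2 or 24 h replicate 3, 8 without 24 h replicate 1 and 9 without the pair, and its higher count 0 without any 1 library other than 24 h replicate 2 and 0 without the pair. The mitochondrial enzyme HADH fell by 0.50 ± 0.078 and the carnitine carrier SLC25A20 by 0.49 ± 0.085. Bile acid and sterol transport genes had 2 of 16 higher and 3 lower, and NR0B2 (SHP), the repressor that bile acids induce, rose by 0.39 ± 0.058. The higher count of transport genes was 1 without any 1 library other than 24 h replicate 2 and 1 without the pair, and the lower count 1 without 12 h replicate 1, 12 h replicate 2 or 24 h replicate 3.

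Called genes of central carbon metabolism were mostly lower. Glycolysis and glucose transport had 5 of 23 lower (21.7%) and 2 higher, gluconeogenesis and the TCA cycle 4 of 27 lower (14.8%) and 1 higher. Lower genes were 7.62% of all tested genes and 15.7% of those with a mean of 50 FPKM or more. Whether these lists differ from other genes of their level was not tested. Glycolysis had higher calls of 0 without any 1 library and 0 without the pair, and lower calls of 2 without 12 h replicate 2 and 3 without 12 h replicate 1, 24 h replicate 2 or 24 h replicate 3. Lower calls in gluconeogenesis and the TCA cycle were 2 without 12 h replicate 1, 12 h replicate 3 or 24 h replicate 3, and higher calls 2 without the pair. IDH2, the mitochondrial isocitrate dehydrogenase that can reverse to carboxylate Gln-derived carbon, had 35.1, 36.5 and 32.8 FPKM at 12 h and 24.0, 23.7 and 23.6 FPKM at 24 h, a fall of 0.54 ± 0.049, and CS (citrate synthase) fell by 0.26 ± 0.04. Among the 36 nuclear genes of the respiratory chain 1 was lower, a count of 0 without 12 h replicate 1, 12 h replicate 2 or 24 h replicate 2, 6 without 24 h replicate 1 and 7 without the pair, and higher calls were 2 without the pair. Among the 13 mitochondrially encoded genes none passed in limma or in voom, and 1 had an unadjusted p under 0.05 (lower calls 1 without 24 h replicate 2).

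Genes of protein synthesis and breakdown had medians between -0.10 and 0.07. None of 62 cytosolic ribosomal proteins was called in limma or in voom, and 0 had an unadjusted p under 0.05, with differences from -0.22 (RPS10) to 0.12 (RPS14) and a median of 0.01. Their higher count was 1 without 24 h replicate 2, and their lower count 3 without the pair. Translation factors had 4 of 30 lower (1 without 12 h replicate 1, 12 h replicate 2, 24 h replicate 2 or 24 h replicate 3 and 2 without 12 h replicate 3 or 24 h replicate 1) and none higher (1 without 24 h replicate 2 and 1 without the pair, 0 in voom and 2 at an unadjusted p under 0.05), and EIF1, which guards start codon choice, fell by 0.29 ± 0.042. Ribosome biogenesis and RNA polymerase I had 7 of 42 lower and none higher (median -0.10; 0 higher also in voom and at an unadjusted p under 0.05), with lower counts of 4 without 12 h replicate 2 or 24 h replicate 3. Among them were LYAR, a nucleolar protein (-0.30), NOP58 of the box C/D particles (-0.26) and UBTF, the activator of ribosomal DNA (-0.25). Lysosome and autophagy genes had 7 of 46 higher and 1 lower (median 0.07), with higher counts of 2 without 12 h replicate 1 and 3 without 12 h replicate 2 or 24 h replicate 3. WIPI1, of the early autophagosome, rose by 0.41 ± 0.072, ATG9A, the autophagy scramblase, by 0.24 ± 0.045, and GLA, the lysosomal galactosidase, fell by 0.42 ± 0.061. Proteasome subunits had 1 of 34 higher and 1 lower, with higher counts of 0 without 12 h replicate 1, 12 h replicate 2, 24 h replicate 2 or 24 h replicate 3, and lower counts of 0 without 12 h replicate 1, 12 h replicate 2, 24 h replicate 2 or 24 h replicate 3, 4 without 24 h replicate 1 and 7 without the pair.

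Chromatin and matrix genes had calls in both directions. Variant histones and chromatin regulators had 6 of 25 lower and 1 higher (0 without 12 h replicate 1, 12 h replicate 3, 24 h replicate 1 or 24 h replicate 3 and 2 without the pair), with DNMT3B, a DNA methyltransferase, down (-0.48) and EZH2, the H3K27 methyltransferase, down (-0.29). Replication-dependent histones, whose mRNA largely lacks a poly(A) tail, had 10 tested members and 1 called. Their higher count was 0 without 12 h replicate 1, 12 h replicate 3, 24 h replicate 2 or 24 h replicate 3 and 0 without the pair, and their lower count 1 without the pair. Extracellular matrix and adhesion genes had 5 of 27 higher and 7 lower, with higher counts of 2 without 12 h replicate 1, 12 h replicate 2 or 24 h replicate 3, and lower counts of 4 without 12 h replicate 2 or 24 h replicate 3. TIMP1, the inhibitor of metalloproteinases, rose by 0.57 ± 0.055, and ITGA2, the integrin that binds collagen, by 0.47 ± 0.05, while CDH1 (E-cadherin) fell by 0.38 ± 0.05.

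Outside the lists, the largest changes with no overlap between the times and a mean of at least 1 FPKM included several genes of known function. L1CAM (chrX:153861514-153886173 on GRCh38), the neural adhesion molecule, had 0.907, 1.11 and 1.03 FPKM at 12 h and 3.01, 2.88 and 2.55 FPKM at 24 h, beside 0.544 ± 0.0468 FPKM with Gln added, a rise of 1.39 ± 0.11. AKAP12, a scaffold of protein kinase A, had 6.62, 7.37 and 7.26 FPKM at 12 h and 14.1, 14.4 and 14.4 FPKM at 24 h, and HID1, a protein of secretory granule formation, had 2.64, 2.68 and 2.67 FPKM at 12 h and 5.18, 5.27 and 5.25 FPKM at 24 h. All 3 kept their calls in every leave-out. FILIP1L, TGFB1I1 (Hic-5, a focal adhesion adaptor), CCDC9B and TMEM59L rose by 1.05 ± 0.061, 1.18 ± 0.22, 1.18 ± 0.13 and 1.03 ± 0.16. Calls of the remaining rises (LOC105373020, FTCD-AS1, ZG16B, LOC105369149, NPIPA7 and LOC107984338, with differences of 0.98 to 1.53) were all lost without 24 h replicate 3, and each also without 1 to 3 other libraries, with adjusted p up to 0.128. Among the falls, LCN15, a lipocalin, had 20.3, 18.8 and 20.1 FPKM at 12 h and 7.83, 5.57 and 6.99 FPKM at 24 h, beside 50.3 ± 1.48 FPKM with Gln added, in a descending order without overlap. OLFML3, a secreted matrix protein, fell by 1.48 ± 0.16 and PIF1, a DNA helicase, by 1.05 ± 0.085, beside the unnamed locus LOC105373485 (-1.05). MT1B, a metallothionein outside the list above, had a difference of -0.94, a call lost without any 1 of the 12 h libraries (adjusted p = 0.0562 to 0.133), and one of -0.61 without 24 h replicate 2.

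Long non-coding RNAs (lncRNAs) had more higher than lower calls. Of 873 with a RefSeq class of lncRNA, 93 were higher (10.7%) and 25 lower (2.86%), with a median of 0.17, while the 10673 protein-coding genes had 753 higher and 866 lower, with a median of 0.01. By level, the 322 lncRNAs with a mean under 1 FPKM had 15 higher and 5 lower with a median of 0.22, the 415 of 1 to 5 FPKM 51 and 9 with one of 0.17, the 123 of 5 to 50 FPKM 26 and 7 with one of 0.07, and the 13 of 50 FPKM or more 1 and 4 with one of -0.12. The protein-coding medians in the same order were 0.08, 0.04, 0.0046 and -0.02. The filter on low values is a mean over both times, and 154 of the tested genes, 72 of them lncRNAs, had a mean under 0.5 FPKM at 12 h, against 47 and 14 at 24 h. Members that passed through the time at which they were high add to these counts and medians, which are given as a description. A group of 123 genes has at least 10% of its exon bases opposite a gene that is at least 20-fold more abundant, and fragments that belong to the abundant gene would weigh most in it. Its libraries lay at -0.23, -0.18 and 0.02 at 12 h and at -0.03, 0.25 and 0.24 at 24 h, relative to the mean of the 6. The times overlapped in this group, with 12 h replicate 3 above 24 h replicate 1, the pair named above. Of the 209 lncRNAs with no exon opposite another gene, 26 were higher (12.4%) and 7 lower, with a median of 0.13. The labels and the methods name different library kits, the one in the methods being strand-specific, and whether fragments were counted by strand is not given in the sources used here, so the part of opposite-strand fragments in the lncRNA values was not tested beyond these medians. Of the genes named above, ACTA2, CDKN2C, CP, DDIT3, DEPP1, DUSP6, FTCD-AS1, ICAM1, TAGLN and WIPI1 also have 20.1% to 36.0% of their exon bases opposite another gene, and their values carry the same limit. AHR, ATG9A, EBP, HSPA1B, MT1B, RPS10 and TAGLN share 29.5% to 38.8% with a gene on their own strand, and the split of their fragments is uncertain.

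**Figure D4:**
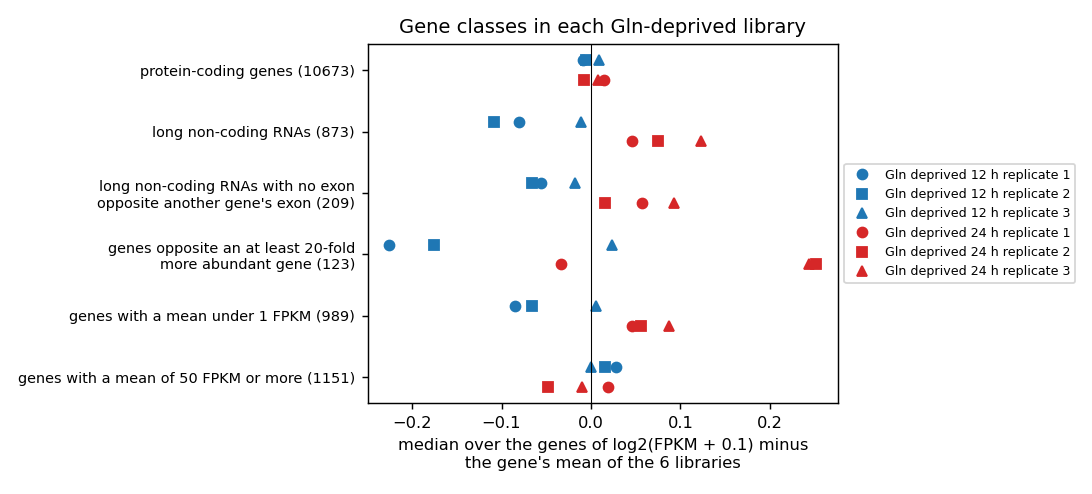
Medians of 6 gene classes (rows, with the number of genes) in each of the 6 Gln-deprived libraries, as log2(FPKM + 0.1) minus the mean of each gene over the 6 libraries (x axis), in blue for 12 h and red for 24 h, with a symbol for each replicate. The lncRNAs were higher in every 24 h library than in any 12 h library, whereas for genes opposite abundant genes 12 h replicate 3 lay above 24 h replicate 1.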

How the data were processed

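RNA of HepG2 cells was sequenced from 3 libraries each with Gln added, Gln deprived for 12 h and Gln deprived for 24 h. The authors deposited 1 table of FPKM values per gene, and all its columns were mapped to samples by their names (0 left out). The submitters' processing notes name GRCh38, HTSeq and R 3.2.0, and the study's methods name STAR and DESeq2. The labels name a VAHTS kit and the methods a strand-specific NEBNext kit. The annotation used for counting is not given in the sources used here. HSPA1A and HSPA1B, GSTA1 and GSTA2, and the metallothioneins are near-identical copies.

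From these FPKM values, genes with a mean of at least 0.5 over the 6 deprived libraries were tested on log2(FPKM + 0.1) with limma 3.58.1 (lmFit, eBayes with trend) in R 4.3.3, two-sided, with Benjamini-Hochberg adjustment over all 11840 genes and a threshold of 0.05. Only the 6 deprived libraries entered the fit. Errors of log2 differences are SE from that fit, errors of FPKM means are SD (n = 3). A gene's FPKM values were whole multiples of 1 fragment in every library, to a tolerance of 0.002, which gave the fragment totals and the counts for voom, an alternative test. On simulated data for this comparison, with 11844 genes, 197 of 198 genes changed by 1 on the log2 scale were called (99.49%), and 16 of 213 calls were false (7.51%). Most of the calls reported here were smaller, with a median size of 0.32 and 79.7% no larger than 0.5. The same shares at such sizes were not tested.

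Members and the 56 gene lists were chosen with earlier results of these data known. Genes were named by rule as the 15 largest rises and falls among called genes whose times did not overlap and whose mean reached 1 FPKM, up to 6 with the largest differences of each list, and all members of lists with up to 12 tested. Some genes that this rule names are not reported here. Positions and exon overlaps come from the GRCh38 annotation, and promoters, with the 8 printed stretches, from the RefSeq table on GRCh38.p14 (the first entry of a gene). Figures were drawn with Python 3.11.15 and matplotlib 3.10.9. Alternatives were another pseudocount, filter, scaling, error model, replicate block and the omission of libraries.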

Additional observations from a re-analysis of the deposited data

How the results depend on the processing

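The number of genes called between the times (1772) was 1141 with no filter on low values, of 21737 genes then tested, and 879 to 1768 when each library was left out in turn. Fewer libraries leave fewer degrees of freedom, but the cause of the difference between libraries was not tested. In the other settings it was 1352 (no trend) to 2545, the latter without 12 h replicate 3 and 24 h replicate 1, a choice made after seeing the data. voom on recovered fragments gave 2022. Higher genes were 54.7% of the calls with libraries rescaled to the same total, 43.2% with median-ratio scaling and 49.1% as reported, while the median of all genes moved between 0.0066 and 0.0337. The 34 differences over 1 became 6 with a pseudocount of 1, 360 at a threshold of 0.5, 1 at a threshold of 2, 23 to 77 when each library was left out, and 128 without both libraries named above. Of 4046 values of 238 named genes under alternatives, 3645 kept their direction and side of the threshold, 392 lost the call, 6 gained it and 3 turned direction. These 3 concerned genes that were not called, CEBPB at -0.0331 without 24 h replicate 1 and -0.0561 without both libraries, and SESN2 at -0.0143 without both. Left out 1 at a time, the libraries gave CEBPB a range of -0.0331 to 0.1118 and SESN2 one up to 0.0942. Genes at low FPKM are limited by depth and by the pseudocount, which understates their change.

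Same-numbered 12 h and 24 h libraries had deviations that correlated at 0.485, -0.090 and 0.477 over 5110 genes. The values of replicates 1 and 3 were the highest between any 12 h and any 24 h library, but that of replicate 2 was not. These values do not settle whether the numbers are pairs, and the main fit did not take them as pairs. A fit with the replicate block called 2025 genes, 40 of them over 1, and kept 225 of the 228 named genes that were called. Not every library correlated best with its own number.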
